A study of Mus musculus with 28 samples.

Results

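Chromatin accessibility was compared between control and Z24-deficient (CKO) growth plate skeletal stem/progenitor cells (gpSSPCs) in 6 ATAC-seq libraries, 3 of each genotype, out of 28 libraries in the series. Each library came with its own list of MACS2 peaks on mm10. Every list was cut to the 68908 peaks with the highest −log10 q-value, the length of the shortest list, and peaks of all libraries that overlapped by at least 1 bp on chromosomes 1 to 19 and X were merged. This gave 104753 regions, of which 41861 (40.0%) held a kept peak in all 6 libraries. A region is called lost if it held a kept peak in all 3 control and no CKO library, and gained in the reverse case.

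The study asked how loss of Zmpste24 (Z24) in the Prx1-Cre lineage ages skeletal progenitors. gpSSPCs were sorted from dissected growth plates as cells positive for Ai9 and CD73, with stains for CD31, CD45 and Ter119 in the same sort. All mice were on a C57BL/6 background, carried Prx1-Cre and the Ai9 reporter, and were 20 weeks old, with sex-matched littermates as controls. The titles name the libraries ctrl and cko, whereas the genotype entry of the labels reads Z24fl/fl for both, so the groups rest on the titles. Prx1-Cre acts in the limb bud mesenchyme, so cells outside the growth plate of these limbs carry the deletion too. No label ties a library to an animal, and all p-values measure the spread between these libraries.

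Z24 is the protease that removes the farnesylated end of prelamin A, and without it uncleaved prelamin A stays at the nuclear envelope. The lamina beneath that envelope anchors closed chromatin. In ATAC-seq a transposase cuts DNA that nucleosomes leave free, and a peak marks a stretch with more insertions than its surroundings. Growth plate chondrocytes open the enhancers and promoters of cartilage matrix genes under SOX9, SOX5 and SOX6.

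Of the promoters among lost and gained regions, 6 are shown as the sequences behind the calls of lost and gained start sites. They are the 3 lost promoters with the highest fold enrichment summed over libraries and the 3 gained promoters among those with a RefSeq entry, which 13 genes at lost and 3 genes at gained promoters had. Each sequence is the 250 bases before the start on the strand of the gene, taken from RefSeq (GRCm38.p6, the assembly that mm10 names). Of 4 motifs searched on both strands, capitals mark matches to 3. The AP-1 motif was TGANTCA. The TATA box was TATAAA. The RUNX motif was TGTGGT. The CCAAT box, searched by its 5 letters, is not capitalised. The lost promoters are Parvaos, a noncoding gene antisense to the actin-binding parvin Parva (chr7:112535684-112535933, minus strand), Il12rb2, a subunit of the interleukin 12 receptor (chr6:67376189-67376438, minus strand) and Ube2u, a ubiquitin-conjugating enzyme (chr4:100478617-100478866, plus strand). The gained promoters are Vstm2a (chr11:16257492-16257741, plus strand), Itih5l-ps, a pseudogene (chrX:150826667-150826916, plus strand) and Arap1, a regulator of small GTPases (chr7:101385276-101385525, plus strand).
Parvaos: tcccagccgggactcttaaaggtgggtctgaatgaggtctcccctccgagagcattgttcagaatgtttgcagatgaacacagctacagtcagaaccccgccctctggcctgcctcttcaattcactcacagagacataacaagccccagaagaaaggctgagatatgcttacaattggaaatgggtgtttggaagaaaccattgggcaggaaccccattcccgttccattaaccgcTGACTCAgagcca
Il12rb2: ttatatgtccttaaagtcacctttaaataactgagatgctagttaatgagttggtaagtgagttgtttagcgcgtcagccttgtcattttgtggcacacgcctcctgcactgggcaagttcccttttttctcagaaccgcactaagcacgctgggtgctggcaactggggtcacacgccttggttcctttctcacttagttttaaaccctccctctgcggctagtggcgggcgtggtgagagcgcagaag
Ube2u: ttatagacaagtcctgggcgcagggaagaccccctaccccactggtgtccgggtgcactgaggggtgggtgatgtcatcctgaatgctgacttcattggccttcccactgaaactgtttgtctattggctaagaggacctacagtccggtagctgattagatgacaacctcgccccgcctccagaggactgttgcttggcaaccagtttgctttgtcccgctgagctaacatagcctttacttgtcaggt
Vstm2a: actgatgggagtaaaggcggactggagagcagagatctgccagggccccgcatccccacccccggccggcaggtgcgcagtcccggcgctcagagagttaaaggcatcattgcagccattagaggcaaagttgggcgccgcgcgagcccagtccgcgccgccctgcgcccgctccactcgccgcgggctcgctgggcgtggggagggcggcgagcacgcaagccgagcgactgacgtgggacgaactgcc
Itih5l-ps: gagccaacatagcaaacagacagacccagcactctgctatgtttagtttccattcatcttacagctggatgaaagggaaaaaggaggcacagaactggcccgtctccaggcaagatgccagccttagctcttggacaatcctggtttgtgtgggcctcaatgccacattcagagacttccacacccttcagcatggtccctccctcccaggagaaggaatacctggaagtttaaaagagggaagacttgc
Arap1: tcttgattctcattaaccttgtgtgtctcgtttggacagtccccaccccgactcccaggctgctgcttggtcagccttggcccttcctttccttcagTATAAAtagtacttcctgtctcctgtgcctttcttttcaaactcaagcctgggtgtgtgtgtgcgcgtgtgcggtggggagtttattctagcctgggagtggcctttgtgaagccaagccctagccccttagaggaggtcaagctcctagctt

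Parvaos held an AP-1 match 13 bp before its start, and Arap1 held a TATA box match 153 bp before its start. The other 4 held none of the capitalised letters, and the CCAAT box had 2 matches each in Parvaos and Ube2u. Of 32851 RefSeq promoters of this length, 6.75% held the AP-1 letters, 12.4% the TATA box, 14.0% the RUNX motif and 33.8% the CCAAT box. In the uncut lists of the other genotype, the regions at these starts had a peak in 1 of 3 libraries at each lost promoter and at Vstm2a, and in all 3 control libraries at Itih5l-ps and Arap1. Vstm2a was the richest in G and C, at 70.0% with 28 CpG sites, against a median of 52.4% and 6 CpG sites over all promoters. A match is a description of the letters only.

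The libraries did not stand alike before genotype was considered. After MACS2's filter the control libraries held 19271923, 18009251 and 40668538 tags (replicates 1, 2 and 3), and the CKO libraries held 12941435, 15154444 and 39801835. Replicate 3 was the deepest of both genotypes. Fold enrichment, the pileup at the summit over the local background, had a median over all peaks of 6.21, 6.14 and 4.84 in control and 6.30, 6.25 and 4.44 in CKO libraries, so replicate 3 was the lowest of both genotypes. The tag size that MACS2 determined was 120, 120 and 86 bp in control and 129, 147 and 108 bp in CKO libraries. CKO replicate 3 held 8770 regions seen in no other library, against 2583 to 3951 in the other 5.

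Cartilage genes had start-site peaks in every library. Of 24 cartilage matrix genes, 21, 20 and 20 had a kept start-site peak in control and 19, 19 and 17 in CKO libraries. Such a peak does not by itself set chondrocytes apart, since all 15 AP-1 and stress genes had one in every library. All 8 chondrocyte markers had a start-site region with a kept peak in all 6 libraries, as did Nt5e, which encodes CD73, with a fold enrichment of 8.04, 8.21 and 7.34 in control and 8.79, 8.51 and 8.14 in CKO libraries. Prrx1, the gene behind the Cre driver, had a kept start-site peak in control replicates 2 and 3 and CKO replicate 3. Some markers of other cells moved with replicate 3. Start-site peaks at the myeloid genes Spi1, Csf1r and Itgam occurred only in replicate 3 of both genotypes, also in the uncut lists, and those at Ptprc, the gene for CD45, and at the fat cell gene Adipoq only in CKO replicate 3. Of 6 myeloid markers, 2, 1 and 5 had a kept start-site peak in control and 1, 1 and 5 in CKO libraries, and Cd68 had one in all 6. Kept peaks at all regions of the 6 genes covered 4172, 3365 and 7170 bp in control and 3137, 2872 and 5877 bp in CKO libraries. The lymphoid genes Cd3e and Cd79a, the erythroid genes Hba-a1 and Gata1 and the muscle genes Acta1 and Myf5 had none in any library. Other members of these lists did. Of 5 lymphoid markers, 2, 2 and 2 had a kept start-site peak in control and 2, 1 and 2 in CKO libraries. For 5 erythroid markers the numbers were 1, 1 and 1 against 1, 1 and 2. For 6 muscle markers they were 0, 1 and 1 against 0, 1 and 1. Those of 5 Schwann cell markers were 4, 4 and 3 against 3, 2 and 2. The part of other cells in the results was not tested, and region, list and promoter counts are also given without both replicates 3.

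Fewer peaks were called in CKO than in control gpSSPCs. The uncut lists held 98514, 92990 and 88044 peaks in control and 84064, 76820 and 68908 in CKO libraries, and every CKO library lay below every control library. The means were 93183 ± 5238 and 76597 ± 7580 (SD, n = 3), a ratio of 0.822. Peaks covered 57.0, 54.3 and 48.9 Mb in control and 48.1, 44.4 and 37.2 Mb in CKO libraries, again with no overlap, at 53.4 ± 4.17 and 43.3 ± 5.53 Mb. For both measures the exact permutation test gave p = 0.1 (two-sided), the smallest value that 3 libraries against 3 allow. In each pair of libraries with the same number the CKO library also had fewer tags, while the deepest CKO library, replicate 3, had the fewest peaks. The part of depth was not tested.

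**Figure D1:**
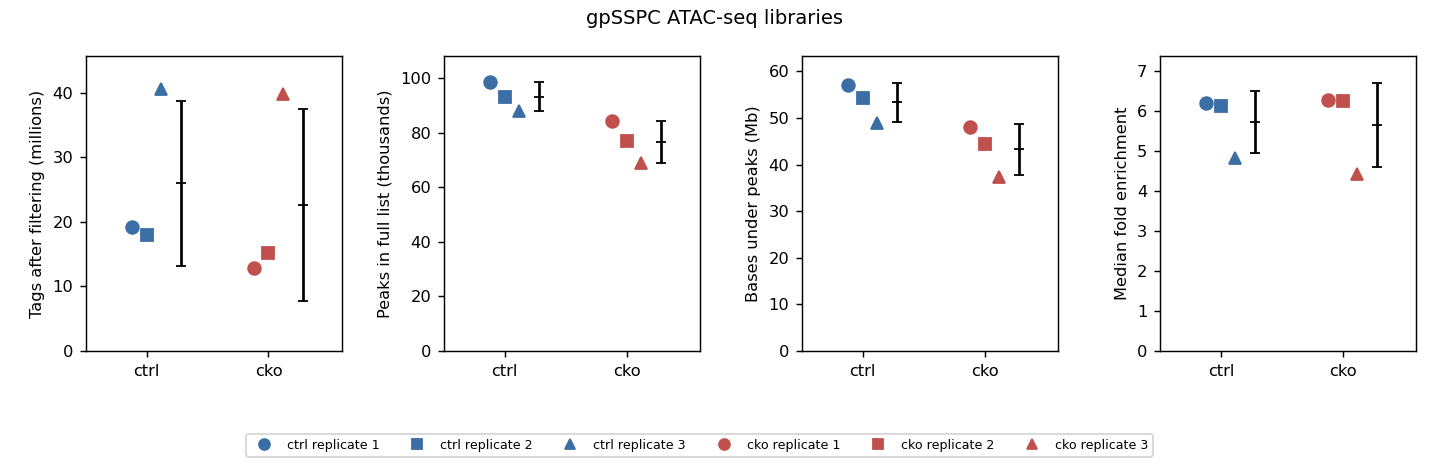
Tags after filtering, peaks in the full list, bases under peaks (Mb) and median fold enrichment for each gpSSPC library, with 1 point per library and the mean ± SD of 3 libraries in black. Peak number and covered bases do not overlap between control (88044 to 98514 peaks) and CKO (68908 to 84064), whereas tags and median fold enrichment overlap, with replicates 3 apart from the others.

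Length and the share of start sites overlapped between the genotypes. In the uncut lists the median length was 472, 487 and 442 bp in control and 478, 486 and 441 bp in CKO libraries (exact permutation test, p = 1). In the cut lists it was 616, 607 and 530 bp against 557, 529 and 441 bp, shorter in CKO in each pair of the same number (exact permutation test, unpaired, p = 0.2). Regions within 1000 bp upstream to 500 bp downstream of a start site and with a kept peak numbered 18266, 18509 and 18778 in control and 18128, 18414 and 18660 in CKO libraries. Their median fold enrichment was 8.94, 8.84 and 7.22 in control and 8.99, 8.69 and 6.27 in CKO libraries. The groups overlapped for both measures (exact permutation test, unpaired, p = 0.7 for each). Within pairs of the same number, CKO had fewer promoter regions in all 3, while their share of the regions with a kept peak, 27.0, 27.6 and 28.4% in control and 27.2, 27.7 and 28.5% in CKO libraries, was higher in all 3. The cut to equal list length fixes the number of peaks that enter these counts.

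In periosteal progenitors (pSSPCs, Ai9+ Sca1+ cells of the same study) the difference in the number of peaks had the opposite sign. Control pSSPC lists held 63494, 59183 and 79689 peaks and CKO lists 72343, 84015 and 101555, and these groups overlapped. Tags were 13932350, 12250713 and 26371117 in control and 17894469, 15115534 and 46756821 in CKO pSSPC libraries, so CKO had more tags in each pair of the same number, where in gpSSPCs it had fewer. The genotype difference was -16585 peaks in gpSSPCs and 18516 in pSSPCs. Exchanging genotype labels within each population, without regard to replicate numbers, an exact permutation test over 400 arrangements, gave p = 0.015 for the difference of -35101 peaks and p = 0.03 for that of -22.4 Mb covered. Adjusted over 5 library measures by the Benjamini-Hochberg method, both were 0.075 and did not pass 0.05. The test assumes no genotype difference in either population, so its p does not single out a difference between them.

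Most regions were shared across genotypes. Of 104753 regions, 569 (0.543%) were lost and 259 (0.247%) were gained. The share of regions common to 2 libraries averaged 69.8% within control, 62.1% within CKO, 69.5% between libraries of different genotype with the same replicate number and 65% between those with other numbers. The 5 pairs with CKO replicate 3 were the lowest, at 57.0 to 64.5%. Of the lost regions, 269 had no peak in any uncut CKO list, whereas 236 had one in CKO replicate 1 and 134 in CKO replicate 2. The list of CKO replicate 3, the shortest, was not cut, so none could have one there. Of the gained regions, 22 had no peak in any uncut control list. In all, 300 lost and 237 gained regions had a peak in at least 1 uncut list of the other genotype. With both replicates 3 left out and the other lists cut anew, 2725 regions were lost and 2115 gained. Without CKO replicate 3 alone, 875 were lost and 1157 gained, which turned the order. With a library left out, a region has to hold or lack a peak in fewer libraries. The counts of 875 and 1157 could thus only rise from 569 and 259.

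**Figure D2:**
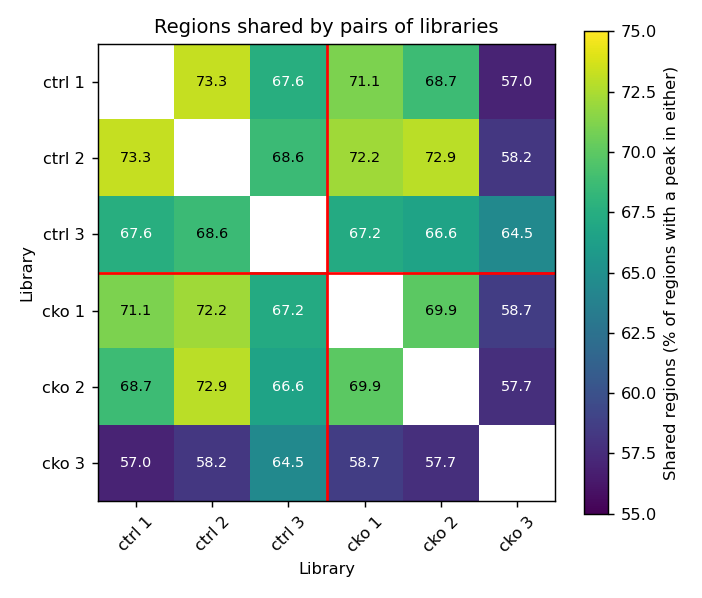
Share of regions (%) with a kept peak in both libraries among regions with one in either, for each pair of gpSSPC libraries, with red lines between control and CKO. Pairs with CKO replicate 3 are the lowest (57.0 to 64.5%), and pairs of different genotype among the other libraries reach 72.9%.

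Lost and gained regions lay in promoters about as often as the other regions not shared by all libraries. Of 569 lost regions, 58 (10.2%) lay in promoters, 227 (39.9%) in introns, 50 (8.79%) in exons and 234 (41.1%) between genes. Of 259 gained regions, 30 (11.6%) lay in promoters, 161 (62.2%) in introns, 15 (5.79%) in exons and 53 (20.5%) between genes. Promoters made up 36.9% of regions in all 6 libraries, 21.6% of all regions and 11.4% of the 62064 other regions, those neither lost, gained nor in all 6. Of these others 46.2% lay in introns, 8.13% in exons and 34.3% between genes. No test was made of these shares. The median width of regions in all 6 was 929 bp, against 471 bp for lost and 476 bp for gained regions, and the median of the highest fold enrichment was 10.2 against 6.86 and 5.45. In the other regions these were 397 bp and 5.70. Of the lost regions, 36.4% had a peak in all 6 pSSPC lists, none had a peak in all control but no CKO pSSPC lists, and 7 had the reverse. Of the gained regions, 12.7% had a peak in all 6 pSSPC lists, none had a peak in all control but no CKO pSSPC lists, and 10 had the reverse. Among the 62064 other regions 17.2% had a peak in all 6 pSSPC lists, 31 in all control only and 1032 in all CKO only.

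The lost region with the highest summed fold enrichment lay in an intron of Clstn2, a calsyntenin (chr9:97817063-97817562), at 14.7, 9.91 and 5.98 in control libraries and with a peak in the uncut list of CKO replicate 1. The next lay in an intron of Tgm1, a transglutaminase (chr14:55702724-55703232), and at the Parvaos start (chr7:112535239-112535990), where fold enrichment was 12.8, 7.86 and 9.16. The other 7 of the first 10 lay in or nearest to Nkx2-6, Xpnpep1, Hand1, Pdp1, Itih5, Adamts15 and Slc9a8. Nkx2-6 and Hand1 encode transcription factors and Adamts15 a matrix protease. In all 10 regions control replicate 1 had the highest value. Only the region near Pdp1 was absent from every uncut CKO list.

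The gained region with the highest summed fold enrichment lay in the noncoding gene Gm20125 (chr10:17012473-17012887), at 8.81, 6.49 and 5.71 in CKO libraries. The nearest start of a protein-coding gene, that of Cited2, was 710538 bp away. This region had a peak in the uncut lists of control replicates 1 and 3. The next lay in introns of Sertad2 (chr11:20586233-20586560), at 7.76, 8.65 and 3.43, and of Col4a3bp (chr13:96617888-96618228), at 7.97, 7.25 and 4.38. Of 6 others of the first 10, those at Fras1, Dab2 and Frmd4a lay within the gene, that at Dab2 also at the promoter of Gm16311. Those with Dact1, Slc1a3 and Kctd12 as the nearest start lay 63662, 23430 and 412206 bp away, the first in an intron of Gm40438. Fras1 encodes an extracellular matrix protein and Dact1 a regulator of Wnt signalling. Each of the 10 had a peak in at least 1 uncut control list.

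Genes of the growth plate and of stress pathways were followed in 9 lists and 12 lists of cell type markers, 251 genes in all. They held 1410 regions, with 7 lost (0.496%) and 7 gained (0.496%), against 0.543% and 0.247% of all regions. Among cartilage matrix genes, 118 regions at 24 genes included 2 lost, at Lum and Epyc, and 1 gained, at Hapln1. Among matrix and adhesion genes, 209 regions at 25 genes included 3 lost, at Tnc, Col5a1 and Itgb1. The chondrogenic factors held 399 regions with none lost and 3 gained, of which 2 lay in introns of Sox6 and 1 in an intron of Fgfr1. The p53 list had 1 lost region at Aen, a p53-induced exonuclease, and 1 gained at Hipk2, a kinase that phosphorylates p53. The nuclear envelope list had 1 lost region at Syne2, which ties the nucleus to the cytoskeleton. The interferon and NF-kB, mechanosensing, AP-1 and stress, and hypoxia lists had none lost or gained. The other gained regions lay at Ebf3 and Nt5e. The gained regions at Fgfr1, Ebf3 and Nt5e each had a peak in all 3 uncut control lists, that at Hapln1 in 2 and that at Hipk2 in 1.

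The lost region in Tnc, the matrix protein tenascin C (intron, chr4:63977037-63977843), had a fold enrichment of 9.22, 11.1 and 6.87 in control libraries and a peak in 2 uncut CKO lists. The exon region of Epyc, the small leucine-rich proteoglycan epiphycan (chr10:97670271-97670627), was at 7.84, 5.47 and 4.11 and had no peak in any uncut CKO list. The lost region within Col5a1 (chr2:27887958-27888242) was low throughout, at 2.36, 2.30 and 2.55. It lay 1675 bp from the Col5a1 start and at the promoter of another gene, 2810430I11Rik, while the start-site region of Col5a1 held a peak in all 6 libraries. The gained Sox6 regions (chr7:116004290-116004808 and chr7:115734255-115734586) were at 5.03, 7.63 and 4.57 and at 5.87, 5.72 and 2.85 in CKO libraries, each with a peak in 1 uncut control list. SOX6 acts with SOX9 on cartilage enhancers. The gained region within Hapln1, which encodes the link protein of aggrecan (chr13:89577470-89578055), was at 3.66, 4.22 and 3.66. It lay 6749 bp from the Hapln1 start and at the promoter of another gene, Gm8546.

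Lum, the gene of the collagen-binding proteoglycan lumican, had a lost start-site region, the only such case among 13 genes followed singly. It lay at chr10:97565053-97565919. Fold enrichment was 7.37, 6.31 and 5.98 in control libraries, no CKO library had a kept peak, and CKO replicate 1 had one in its uncut list. All 6 pSSPC lists had a peak there. Lum RNA in gpSSPCs was 970, 1760 and 1824 CPM (counts scaled to 1000000 per library) in control and 797, 1452 and 1438 in CKO libraries, with overlap between the groups and the lower value in CKO in each pair of the same number. The log2 fold change was -0.30 (edgeR, adjusted p = 1, also with the replicate block).

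The 4 neighbouring small leucine-rich proteoglycan genes Dcn, Lum, Kera and Epyc lie together on chromosome 10. Within 180 kb on either side of the Lum start, a window chosen after its values were seen, 27 regions were found. Kept peaks lay in 19, 20 and 17 of them in control and in 16, 15 and 10 in CKO libraries, with no overlap. Over the whole genome the numbers were 67737, 67058 and 66187 against 66767, 66420 and 65452. Of the 27 regions 3 were lost (11.1%, against 0.543% of all regions), 1 was gained and 8 were present in all 6, in a window chosen for its losses. More control than CKO libraries had a kept peak in 13, and more CKO than control libraries in 2. In the uncut lists the numbers were 25, 25 and 21 against 18, 17 and 10, where CKO lists held 0.822 times the peaks of control lists overall. The lost regions were the Lum start, the Epyc exon and a region between genes 136 kb upstream of Lum (chr10:97428881-97429474), at 8.42, 5.47 and 5.05. CKO replicate 3 was the lowest in both counts.

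**Figure D3:**
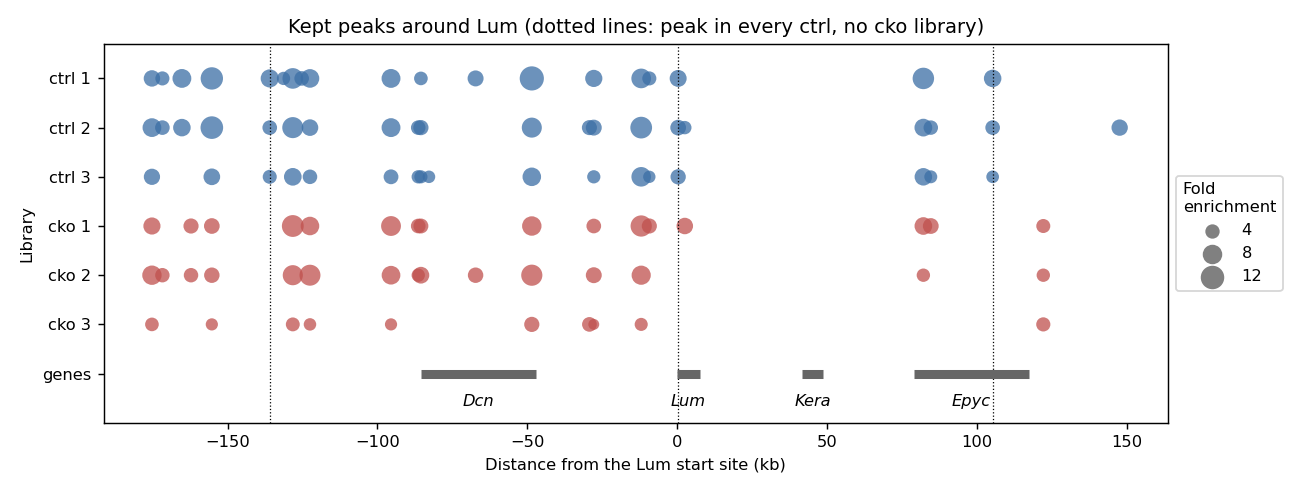
Kept peaks of each gpSSPC library by distance from the Lum start (kb), with point area rising with fold enrichment, gene bodies as bars and dotted lines at the 3 lost regions. Control libraries have kept peaks in 17 to 20 of the 27 regions and CKO libraries in 10 to 16.

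Peak height was compared in the 41861 regions present in all 6 libraries, by the rank of fold enrichment within each library. With limma and Benjamini-Hochberg adjustment no region passed an adjusted p of 0.05 (0%), and the lowest adjusted p was 0.954. At an unadjusted p under 0.05 there were 1776 regions (4.24%), 451 higher and 1325 lower in CKO. With the replicate number as a block there were 3778 and still no call. Every CKO library ranked above every control library in 2316 regions (5.53%) and below in 1772 (4.23%). Among the 15449 promoter regions the shares were 6.2% and 2.65%. The order turned by fold enrichment itself, with 481 regions (1.15%) higher and 1011 (2.42%) lower in every CKO library. Among promoter regions 287 (1.86%) were higher and 347 (2.25%) lower by that measure. Pileup scaled by the number of tags was higher in every CKO library in 2 of the shared regions and lower in 138.

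The lowest unadjusted p for a lower rank belonged to a region between genes 25052 bp from the start of Tmem158 (chr9:123285580-123286052), with a fold enrichment of 12.7, 11.3 and 10.8 in control and 7.97, 5.72 and 3.61 in CKO libraries. The difference was -1.75 in normal scores (95% interval -2.43 to -1.07, limma, adjusted p = 0.954). The others of the first 10 lay in introns of Wwox, Lima1, Cacnb4 and Galnt10 and between genes near Zfp366, Fgd2, Stt3b, Nfatc2 and Dcn. The last of these (chr10:97409341-97410353) lay in the Lum window, with 12.8, 13.1 and 7.1 in control and 6.29, 6.11 and 3.8 in CKO libraries. For a higher rank the lowest p belonged to an exon region of Col2a1, followed by regions near Cirbp and at Timp3, Lmcd1, Cables1, Map7d1, Hip1r, Igf2r, Smim17 and Slc44a1. The ranks of the genotypes did not overlap in any of the 20 regions, which their choice by p favours. Fold enrichment overlapped at Lmcd1, Hip1r, Igf2r and Smim17.

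Col2a1, the gene of type II collagen and the main collagen of cartilage, had 4 regions in all 6 libraries. Its exon region (chr15:97997317-97998459) had a fold enrichment of 2.23, 2.39 and 2.48 in control and 3.28, 3.8 and 2.9 in CKO libraries, a difference of 1.09 in normal scores (95% interval 0.60 to 1.58, limma, adjusted p = 0.954). At its start site (chr15:98004241-98005885) the values were 4.18, 4.85 and 4.93 in control and 5.68, 6.01 and 5.33 in CKO libraries. In each of the 4 regions every CKO library had the higher fold enrichment. The pileup at the start site, scaled to 1000000 tags, overlapped between the genotypes, at 6.23, 6.61 and 3.54 against 8.27, 6.47 and 2.44. Col2a1 RNA was 24366, 14892 and 15201 CPM in control and 11157, 6181 and 6095 in CKO libraries, lower in every CKO library. The log2 fold change of -1.19 had an adjusted p of 1 with edgeR, and with the replicate number as a block it was -1.21 with an adjusted p of 0.00169. In that block the summed replicates 2 and 3 were 1 level, and both fits had 2 samples against 2.

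Fn1 encodes fibronectin, a ligand of integrins. Its start site (chr1:71652683-71654185) had a fold enrichment of 5.52, 6.67 and 6.61 in control and 8.31, 8.92 and 7.53 in CKO libraries. Every CKO library was higher, while the ranks overlapped and the difference of 0.83 in normal scores (95% interval 0.09 to 1.58) had an adjusted p of 0.954 with limma. The local background, scaled in the same way, was 1.52, 1.34 and 0.744 in control and 1.48, 1.12 and 0.420 in CKO libraries. The start-site difference was 0.399 in log2 fold enrichment and 0.026 in log2 scaled pileup, and neither passed limma's test. Fn1 RNA was 3672, 3107 and 3056 CPM in control and 2488, 2647 and 2688 in CKO libraries, lower in every CKO library. The log2 fold change of -0.38 did not pass edgeR's test (adjusted p = 1, also with the replicate block).

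Il7 encodes a cytokine of lymphocyte survival. Its start site (chr3:7612543-7613915) had a fold enrichment of 12.4, 13.4 and 11.1 in control and 12.9, 12.5 and 8.75 in CKO libraries, and the groups overlapped, with a rank difference of -0.08 (95% interval -0.67 to 0.50). Il7 RNA was 3.30, 4.54 and 5.98 CPM in control and 17.9, 16.8 and 19.7 in CKO libraries, a log2 fold change of 2.05 that did not pass edgeR's test (adjusted p = 1). Cdkn1a, the gene of the cell cycle inhibitor p21 (chr17:29093435-29095768), was at 4.37, 5.46 and 5.07 against 5.25, 6.18 and 5.30, with overlap. Cxcl9, an interferon-induced chemokine, had a start-site peak only in CKO replicate 3, at 4.63. Zmpste24 itself had a start-site peak in every library, at 12.1, 8.38 and 10.8 in control and 11, 9.57 and 8.41 in CKO libraries, which says nothing of the floxed part. Its RNA was 11, 48 and 80 counts in control and 2, 21 and 29 in CKO libraries, lower in each pair of the same number. Counted reads per RNA library were also fewer in CKO in each pair. The log2 fold change of -1.13 did not pass edgeR's test, nor did it with the replicate block. Serpina1a RNA passed edgeR's test with the replicate block (log2 fold change 1.40, adjusted p = 0.000539) and not without it (1.35, adjusted p = 1). Both fits had 2 samples against 2. At the start sites Bcl3, Serpina1a and Lrp4 overlapped, Wif1 was lower in fold enrichment in every CKO library but not in rank, Apoe lacked a kept peak in control replicate 1, and Tnn had no start-site region.

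**Figure D4:**
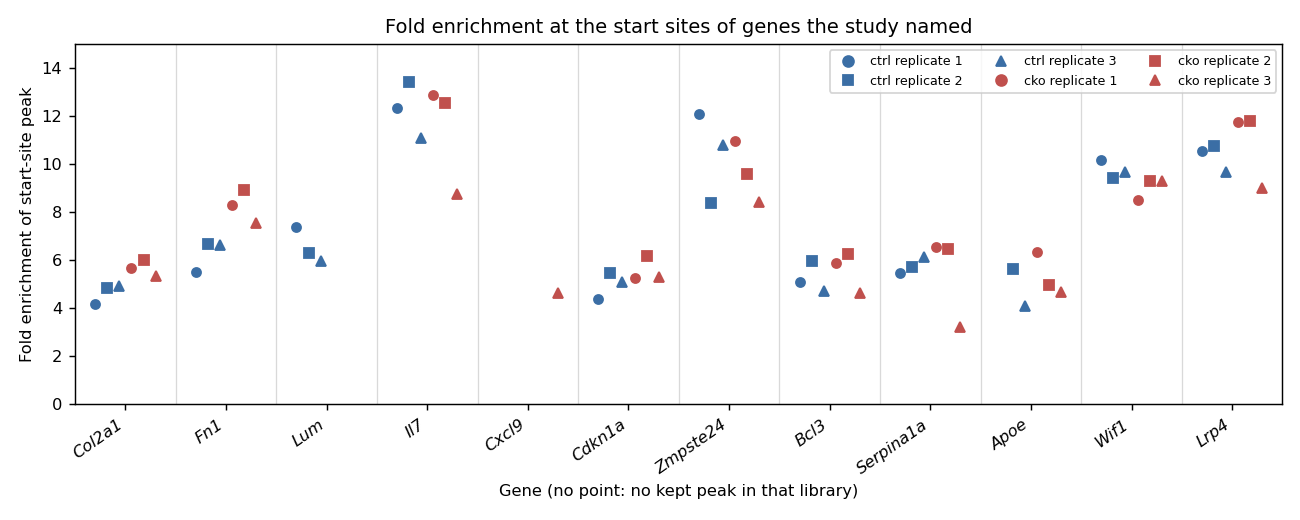
Fold enrichment of the start-site peak for 12 of the 13 genes, with 1 point per gpSSPC library and no point where a library had no kept peak. Col2a1 (4.18 to 4.93 against 5.33 to 6.01) and Fn1 (5.52 to 6.67 against 7.53 to 8.92) are higher in every CKO library, and Lum has points in control libraries only.

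Of the 9 lists, that of AP-1 and other immediate early and stress genes had the highest share of start sites that ranked higher in CKO. In 8 of 15, the rank was higher in every CKO library (Fosl1, Fosl2, Junb, Atf3, Egr1, Nr4a1, Nr4a2 and Hspa1b), and in none was it lower, against 6.2% and 2.65% of promoter regions. When ranks were taken over all kept regions of a library, Fosl2 overlapped and the count was 7. By fold enrichment itself 4 of the 15 were higher in every CKO library and 0 lower, against 1.86% and 2.25% of promoter regions. The median rank of the 15 was at percentile 2.39, 3.48 and 4.01 in control and 4.23, 9.01 and 34.5 in CKO libraries, with CKO replicate 3 the highest. The median rank difference was 0.55 against 0.13 over all promoter regions, and none passed the adjusted threshold with limma. Without both replicates 3, 9 of 15 were higher, against 26.5% of promoter regions.

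Junb, an AP-1 subunit, had a fold enrichment of 2.35, 2.59 and 2.34 in control and 2.93, 3.25 and 2.75 in CKO libraries. Atf3, a stress-induced partner of AP-1, was at 4.49, 5.34 and 4.68 against 6.04, 6.56 and 5.55. Neither overlapped. The local background was high at Junb, at 3.71, 3.45 and 2.2 in control and 3.99, 2.97 and 1.61 in CKO libraries when scaled to 1000000 tags, against a median between 0.195 and 0.389 over all shared regions. The scaled pileup at Junb was 8.72, 8.94 and 5.14 in control and 11.7, 9.63 and 4.42 in CKO libraries and overlapped. Scaled pileup was higher in every CKO library in no gene of the list, as in none of the 15449 promoter regions. RNA of the 15 genes was tested, and none passed edgeR's threshold.

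**Figure D5:**
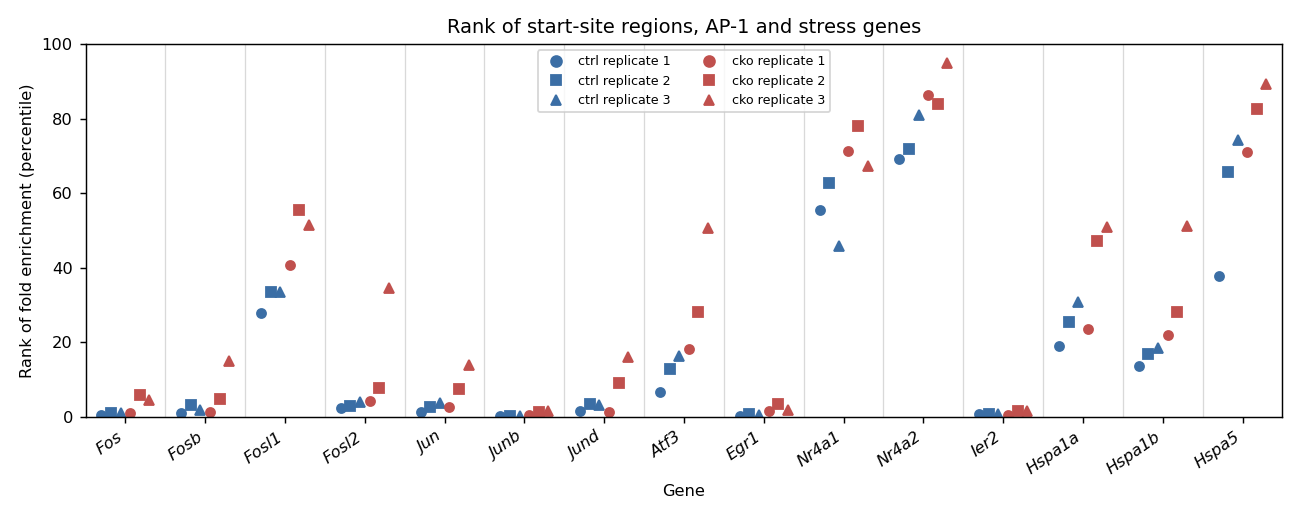
Rank of fold enrichment (percentile among the regions present in all 6 libraries) of the start-site region for 15 AP-1 and stress genes, with 1 point per gpSSPC library. In 8 genes all CKO points lie above all control points, and CKO replicate 3 (triangles) is often the farthest, with a median percentile of 34.5.

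The counts of the remaining lists are read against the same 6.2% of promoter regions higher and 2.65% lower. In the interferon and NF-kB list 5 of 24 start sites ranked higher in every CKO library, H2-K1 and the NF-kB genes Nfkbia, Nfkb1, Nfkb2 and Tnfaip3, and Gbp2 ranked lower. In the p53 and apoptosis list 4 of 30 ranked higher (Bbc3, Trp53, Mcl1 and Hipk2). In the chondrogenic list 4 of 23 did (Runx1, Foxa3, Pthlh and Grem1), in the nuclear envelope list 3 of 14 (Lmna, Sun2 and Banf1) and in the cartilage matrix list 2 of 17 (Col11a2 and Comp). Col6a3, a chain of type VI collagen, ranked lower among 20 matrix and adhesion genes, at 3.8, 4.5 and 3.33 against 3.27, 3.14 and 2.66. None of 16 mechanosensing and none of 15 hypoxia genes differed in this way. None of these passed the adjusted threshold. By fold enrichment itself, 1.86% of promoter regions were higher and 2.25% lower in every CKO library. Start sites higher and lower by that measure were 0 and 0 (interferon and NF-kB), 2 and 0 (p53) and 0 and 1 (chondrogenic). They were 4 and 0 (cartilage matrix), 2 and 2 (matrix and adhesion) and 1 and 0 (mechanosensing). For the nuclear envelope list they were 0 and 0, and for the hypoxia list 0 and 1. Without both replicates 3, where 26.5% of promoter regions ranked higher and 11.8% lower, the lists had 6 higher and 2 lower (interferon and NF-kB), 10 and 1 (p53), 10 and 1 (chondrogenic), 7 and 1 (nuclear envelope), 7 and 0 (cartilage matrix), 6 and 2 (matrix and adhesion), 5 and 1 (mechanosensing) and 3 and 3 (hypoxia).

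The bases under kept peaks of a shared region were fewer in every CKO library in 6671 regions (15.9%) and more in 265 (0.633%), with a median difference of -0.13 on the log2 scale, which was -0.06 without CKO replicate 3. No region passed the adjusted threshold with limma (0%), and 3406 had an unadjusted p under 0.05, of which 3305 were shorter. The median length over the shared regions was 798, 790 and 736 bp in control and 745, 724 and 625 bp in CKO libraries. It was shorter in CKO in each pair of the same number, while control replicate 3 lay below CKO replicate 1 (exact permutation test, unpaired, p = 0.2). By rank of length the balance was 843 longer to 1130 shorter at that p.

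The genotype difference in rank was also set against that in pSSPCs, in 21569 regions with a kept peak in all 12 libraries. No region passed the adjusted threshold in the limma interaction (0%), and 2130 had an unadjusted p under 0.05. With a replicate block within each population 35 regions passed, all with a difference of the same sign.

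RNA of the genes at changed promoters was read from gpSSPC RNA-seq. Replicates 2 and 3 of each genotype differed by less than the sampling noise and were summed, which left 2 samples against 2. Of 12041 genes none passed with edgeR (0%), 57 had an unadjusted p under 0.05, DESeq2 called 1, and edgeR with the replicate number as a block called 12. Of 60 genes with a lost promoter region, 18 were tested, with 9 higher and 9 lower in CKO, and 15 of them had another promoter region in all 6 libraries. Of 30 genes with a gained promoter region, 13 were tested, with 5 higher and 8 lower, against 49.8% lower over all genes tested.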

How the data were processed

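The 6 gpSSPC ATAC-seq libraries were compared by their peak lists. Reads were aligned by the authors to mm10 with Bowtie2, filtered for mitochondrial and duplicate reads with Sambamba and passed to MACS2 2.2.7.1 for peak calling, 1 library at a time (shift -100, extension 200, q-value cutoff 0.05, no control library). Per the file headers, MACS2 still counted 9 to 23% of the tags it received as redundant. The deposited pileup signal is not scaled for depth, and the deposited fold enrichment (a ratio to the local background) and −log10 p-values and q-values come from the authors' MACS2 run on that library alone. The deposited RNA-seq counts were made by the authors with STAR and HTSeq and are not normalized. The study's DESeq2 test of reads per peak was not repeated.

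The rank of the highest fold enrichment per region, as a normal score among regions present in all 6 libraries, and log2 of the peak length were tested with limma 3.58.1 (eBayes with trend). RNA was tested with edgeR 4.0.16 (TMM, quasi-likelihood), with DESeq2 1.42.0 as an alternative. Scripts were tested on simulated data. Regions were placed with GENCODE vM21. Pileup per 1000000 tags was divided by fold enrichment for the local background. Same-numbered libraries of both genotypes had deviations that correlated at 0.32, 0.18 and 0.48 over regions, and those with other numbers at -0.40 to 0.18, with control replicate 2 as close to CKO replicate 1 as to CKO replicate 2. The replicate number was also fitted as a block, and the labels do not say what a number shares.

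Named genes are those the study shows, list genes with a lost or gained region, and the 10 regions per direction with the highest summed fold enrichment or lowest p; list genes whose ranks did not overlap were named after their values were seen. The gene at 1 of these regions is not reported here. Members, lists and the ranking of regions were chosen with earlier results of these data known. Ranks were first taken over all kept regions of a library and then over the shared regions, to match the limma fit, with both results in view.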

Additional observations from a re-analysis of the deposited data

Results flagged for a closer look

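The genotype difference in the number of peaks had opposite signs in gpSSPCs and pSSPCs. It differed between the populations by -35101 peaks (exact permutation test, p = 0.015), and the bases covered differed by -22.4 Mb (exact permutation test, p = 0.03). The labels were exchanged within each population, without regard to replicate numbers. The null is thus no genotype difference in either population, and its p does not single out a difference between them. Both adjusted values over 5 measures were 0.075. Tags moved the same way within pairs of the same number, with fewer in CKO in all 3 gpSSPC pairs and more in all 3 pSSPC pairs. The part of depth in the peak numbers was not tested.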

How the results depend on the processing

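Counts of lost and gained regions stayed within 1.5 times when peaks were ranked by pileup (587 and 269) or taken as 500 bp windows at summits (593 and 337), as did lost regions ranked by fold enrichment (758) and gained regions under 50% coverage (186). They moved further with the other choices, and the cause was not tested beyond the rules and list lengths stated below. Lost regions numbered 1785 with uncut lists, 227 with lists cut to 50% of the shortest, 1813 with uncut lists at a −log10 q-value of at least 5, 899 where peaks had to cover 50% of a region, and 269 when absent from the uncut CKO lists. Gained regions numbered 60, 143, 34 and 22 under the same settings except coverage, and 410 when peaks were ranked by fold enrichment. Leaving out 1 library gave 875 to 1757 lost and 487 to 1157 gained regions, and leaving out both replicates 3, a setting chosen after seeing the data, gave 2725 and 2115. With 1 library left out the same regions were judged by fewer libraries of that genotype, so these counts could only rise. Leaving out both replicates 3 eased the rule for both genotypes, on lists cut anew. More regions were lost than gained in these settings, except without CKO replicate 3 (875 and 1157). Every uncut control list was longer than every uncut CKO list. This favours lost over gained regions in the settings that use uncut lists, so the order there is no separate result.

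Calls in the rank and length fits were 0 in every alternative run, including each library left out and the replicate block. The block within populations gave 35 calls for the difference from pSSPCs against 0. Presence could not be fitted with a block; in pairs of the same number, regions seen only in control against only in CKO were 11866 and 10896, 10774 and 10136, and 14566 and 13831. RNA calls were 3 without a filter on low counts, 12 with the replicate block (Col2a1 and Serpina1a among them) and 1 with DESeq2. The genotype difference ranged from -20319 to -12741 peaks, from -12.6 to -7.15 Mb, from -11.2 to 15 bp in median length and from -0.51 to 0.54 in median fold enrichment when 1 library was left out, and was -75.3 bp in median length on the cut lists. Regions whose ranks did not overlap numbered 9124 higher and 6427 lower without both replicates 3 (promoter regions 4093 and 1823). With ranks over all kept regions of each library, the form computed first and replaced after both were seen, they numbered 2667 and 1520 (promoter regions 1038 and 364), and the AP-1 and stress list had 7 in place of 8. Of start-site differences, none of which passed the test, the sign turned on scaled log2 pileup at Cdkn1a (-0.21), Col2a1 (-0.054), Bcl3 (-0.15) and Wif1 (0.073), and in rank without both replicates 3 at Zmpste24 (0.090), Il7 (0.016) and Serpina1a (0.38). With 1 library left out it ranged from -0.43 to 0.27 at Zmpste24, from -0.22 to 0.013 at Il7, from -0.32 to 0.13 at Serpina1a and from -0.41 to 0.29 at Wif1. The exact permutation test of 3 libraries against 3 cannot go below p = 0.1 for a single value.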
